A study of Mus musculus with 8 samples.

Results

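The NF-kB transcription factor subunits and a set of inhibitors and feedback genes of the pathway were followed in BMEL cells, a line of bipotential cells from embryonic mouse liver. Members were picked by symbol, with earlier results of these data known. They are the 5 subunit genes Nfkb1, Nfkb2, Rela, Relb and Rel, and the 5 inhibitor and feedback genes Nfkbia, Nfkbib, Nfkbie, Tnfaip3 and Birc3. All 10 were among the 18671 genes of the deposited expression table, and all 10 were tested, without a filter on low values. The 8 samples form 2 groups of 4 (replicates 1 to 4 in each), collected 48 h after the plasmid was given. The pIGrhl2 group received a plasmid for human GRHL2 with a Flag tag, driven by the EF1A promoter, which also encodes enhanced green fluorescent protein. The pcDNA group received the pcDNA3 vector. Cells of both groups were transfected with JetPrime and kept on collagen in medium with serum, IGFII, EGF and insulin. The plasmids thus differ by more than GRHL2, and no untransfected cells were analysed here. Each value averages all cells of a sample, so fewer cells of a kind and less RNA per cell cannot be told apart.

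NF-kB factors are dimers of Rel family proteins that are held in the cytoplasm by IkB proteins. In the canonical pathway, signals from TNF, IL-1 or Toll-like receptors activate the IKK complex, which marks IkB for destruction and frees dimers such as p50 with RelA. In the non-canonical pathway, NIK and IKKα drive the processing of p100 to p52, the partner of RelB. The freed dimers bind kappaB sites and induce their own inhibitors (IκBα, A20 and others), so that the mRNA of these genes is widely used as a readout of the pathway. In liver, this pathway protects hepatocytes from TNF-induced death and drives inflammatory gene expression.

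Promoter sequence that matches the kappaB consensus is shown because it is the type of sequence that NF-kB dimers are known to bind. RefSeq promoter windows of GRCm38.p6 (250 bases before to 50 after each start) were at hand for 8 of the 10 genes (11 windows), the others being Nfkb1 and Relb. The kappaB consensus was searched on both strands, and overlapping matches were merged. It was found in 5 of these 8 genes, at 9 positions, against 9.55% of the 27025 genes with a window. The core GRHL motif AACCGGTT, searched on both strands, was in none of the 8 genes, and so overlapped no kappaB match, and in 0.174% of all genes. A match describes the sequence only. These letters say nothing of binding. The matches are given in capitals with 9 bases on each side, on the strand of the gene:
Nfkbia, chr12:55492658-55492685: gactggcttGGAAATTCCCcgcgcctga
Nfkbie, chr17:45555585-45555612: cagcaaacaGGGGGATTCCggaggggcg
Rel, chr11:23771042-23771070: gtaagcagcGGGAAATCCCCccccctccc
Tnfaip3, chr10:19015404-19015431: atttccatcGGAAATCCCCctgttggca
Tnfaip3, chr10:19015517-19015544: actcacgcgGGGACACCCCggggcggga
Nfkb2, chr19:46304689-46304717: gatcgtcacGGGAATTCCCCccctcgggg
Nfkb2, chr19:46304717-46304744: gggccgaaaGGGGCTTTCCcggctggag
Nfkb2, chr19:46305450-46305477: ccgacggcaGGAATGTCCCcacaaaagc
Nfkb2, chr19:46305696-46305723: ggtattttcGGGACTTTCCtaagcagca
The matches of Nfkbia and Nfkbie began 29 and 106 bases before the start, and that of Rel 92 bases before it. Those of Tnfaip3, from the top, began 12 and 125 bases before its start. Nfkb2 has 3 windows, and its last match lies 225 bases before one start and just inside the transcript from another. Nfkbie, the member with the largest difference between groups, has the following 250 bases before its start (plus strand, chr17:45555450-45555699), with the kappaB match in capitals:
Nfkbie: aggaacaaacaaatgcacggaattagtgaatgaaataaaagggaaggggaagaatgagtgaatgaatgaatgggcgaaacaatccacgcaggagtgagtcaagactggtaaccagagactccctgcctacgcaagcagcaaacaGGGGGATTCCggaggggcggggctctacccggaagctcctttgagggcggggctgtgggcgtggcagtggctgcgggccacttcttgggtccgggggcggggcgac

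Values were read as a log2 scale per transcript length, and a log2 value is meant wherever no other scale is named. The log2 reading is an inference from the values, since the methods speak of rlog values, a log2-type scale of DESeq2, that were divided by length. Taken literally in kb, a division would need an rlog over 30, a read count that no library reaches, at 827 of the 18428 genes with a length in GENCODE M21. With the log2 of the length in kb added back instead, the highest value was 17.84, and the share of genes below 0 went from 4.86% to 0.038%. The rlog shrinks differences at genes with few reads, and read depth is unknown. Across all genes, 16.4% were called by limma (linear model of the 2 groups, Benjamini-Hochberg adjusted p under 0.05), with 10.5% higher and 5.91% lower in the pIGrhl2 samples, and the groups did not overlap at 23.8% of genes. In a fit of only the 10973 genes with a mean of at least 5, 715 were higher and 899 lower. The balance of directions thus depends on genes of low value. Grhl2 had a mean of 4.53 ± 0.12 (SD, n = 4) in pcDNA and 6.24 ± 0.55 (SD, n = 4) in pIGrhl2 samples (log2 fold change 1.71, adjusted p = 0.00100, limma). The table lists mouse symbols, so the share of plasmid-derived reads in this difference is unknown. Of the 10 markers of embryonic liver epithelium, all were in the table, led by the keratin gene Krt8 (15.31 and 15.41 in pcDNA and pIGrhl2 samples). Krt8 had an adjusted p of 0.300 (limma), Foxa1 was called higher (0.21) and Afp lower (-0.21). Of the 10 leukocyte markers, 7 were in the table and none was called by limma. At an unadjusted p under 0.05 there was 1 (limma), against 5796 of all 18671 genes. With the replicate number as a block, 1 was called higher (14.3%, against 18.2% of all genes) and 1 lower (14.3%, against 13.9%). The pan-leukocyte gene Ptprc lay at 0.90 in pcDNA and at 0.88 in pIGrhl2 samples. Cd68, the highest of them (6.08 and 6.25), had an adjusted p of 0.0559 (limma). Summed as linear values, these 7 genes had a log2 level of 6.66 to 6.83 in pcDNA and 6.82 to 6.89 in pIGrhl2 samples. Of the endothelial markers, 5 of 6 were in the table, none was called by limma, and the highest was Pecam1 (3.33 and 3.25). At an unadjusted p under 0.05 there were 3 (limma), against 5796 of all 18671 genes. With the block, 2 were called higher (40.0%, against 18.2% of all genes) and none lower (against 13.9%). Of the stellate and mesenchymal markers, 4 of 6 were in the table, led by Col1a1 (5.22 and 5.35). Called higher were 2 (50.0%, against 10.5% of all genes), Reln (0.91 and 1.01) and Pdgfrb (-0.23 and -0.12). With the block, 3 were higher (75.0%, against 18.2%) and none lower. The part of these cell markers in the results was not tested.

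In control cells, the members spanned over 6 log2 units. Rela, which encodes the main transactivating subunit, was highest, at 11.21 ± 0.12 (SD, n = 4), and above 95.3% of genes. Tnfaip3, the gene of the deubiquitinase A20, followed at 9.95 ± 0.41, and Nfkb2, which encodes p100, at 9.64 ± 0.17. The ranges of the 4 control samples of Tnfaip3 and Nfkb2 overlapped, whereas every other pair of neighbours in the order was separated. Next came Nfkb1, which encodes p105 and p50 (9.15 ± 0.055), Nfkbib, which encodes IκBβ (8.90 ± 0.078), and Nfkbia, which encodes IκBα (8.34 ± 0.12). Relb (7.70 ± 0.13) and Birc3, which encodes the ubiquitin ligase cIAP2 (7.40 ± 0.12), were intermediate. The lowest were Rel, which encodes c-Rel (5.38 ± 0.19), and Nfkbie, which encodes IκBε (5.01 ± 0.093, above 41.5% of genes). In pIGrhl2 samples the first 8 places were the same, while Nfkbie (5.35 ± 0.12) came before Rel (5.199 ± 0.088), with overlapping ranges. There the ranges of Nfkb1 and Nfkbib, and of Relb and Birc3, also overlapped. The members lie on 8 chromosomes (GENCODE M21, GRCm38), with Nfkb2 and Rela on chromosome 19 and Relb and Nfkbib on chromosome 7. The levels of different genes depend on the transcript lengths that the authors averaged over each symbol.

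**Figure D1:**
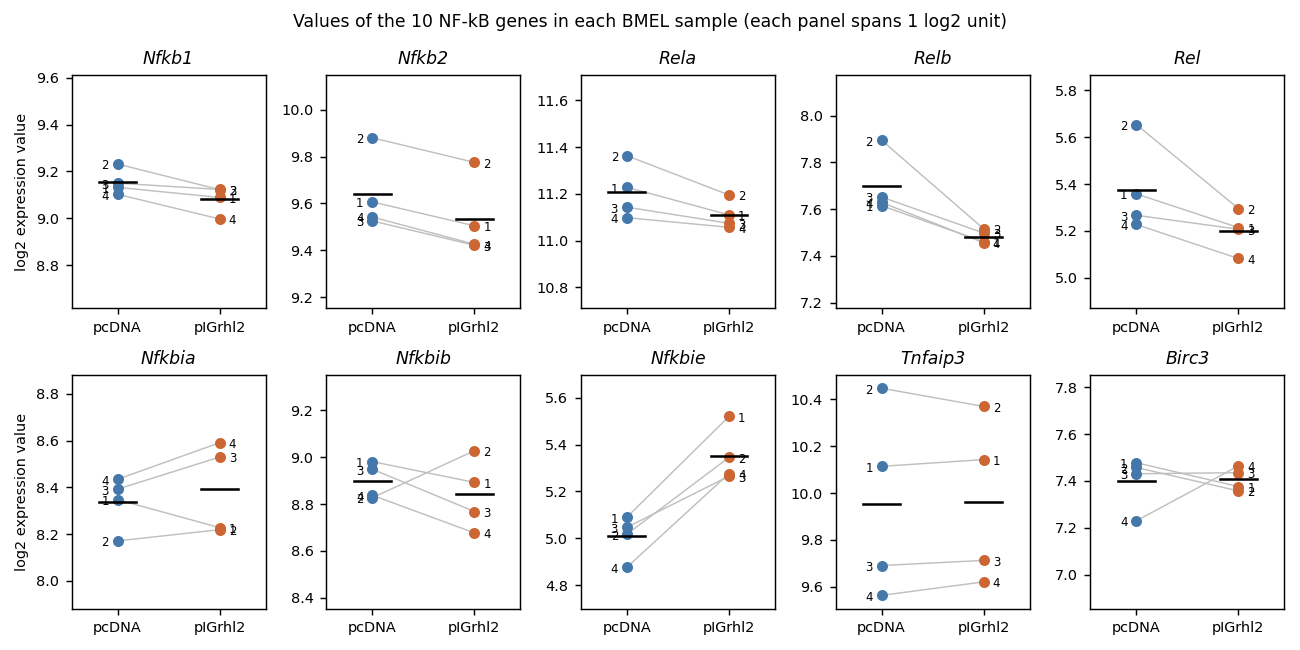
Log2 expression value (vertical axis, each panel spanning 1 log2 unit) of the 10 NF-kB genes in the 4 pcDNA (blue) and 4 pIGrhl2 (orange) samples. Numbers are replicates, grey lines join samples with the same number and black bars are means: Nfkbie and Relb are the genes whose groups do not overlap, and all lines of the 5 subunit genes (upper row) go down.

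The comparison of the 2 groups asks whether the mRNA of this pathway differs 48 h after transfection with GRHL2. Nfkbie (chr17:45555703-45563169, plus strand) was the member with the largest difference. Its values were 5.09, 5.02, 5.05 and 4.88 in pcDNA replicates 1 to 4 and 5.52, 5.35, 5.27 and 5.28 in pIGrhl2 replicates 1 to 4. Every pIGrhl2 sample was thus above every control sample. Nfkbie rose by 0.34 on the log2 scale (standard error 0.066, 95% confidence interval 0.20 to 0.49, adjusted p = 0.00700, limma), or 1.27-fold (exact permutation test, two-sided, p = 0.0286, the smallest that 4 against 4 allow). It was called with each of the 8 samples left out in turn (0.29 to 0.37) and under 9 other alternatives, but not when a log2 fold change beyond 0.5 was also asked for, which no member reached. Replicates 1 and 2 alone gave 0.38, and replicates 3 and 4 alone gave 0.31.

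Relb (chr7:19606217-19629438, minus strand), the subunit of the non-canonical pathway, was the other member called. It lay at 7.61, 7.89, 7.65 and 7.63 in pcDNA replicates 1 to 4, and at 7.46, 7.52, 7.50 and 7.46 in pIGrhl2 replicates 1 to 4. The groups did not overlap, and pcDNA replicate 2 stood above the other controls. Relb fell by 0.22 (standard error 0.0645, 95% confidence interval -0.36 to -0.07, adjusted p = 0.0478, limma), to 0.8615 of the control level. The two-sided exact permutation test gave the smallest p that it can, 0.0286. Blocking on the replicate number brought the adjusted p to 0.00937 (limma). The call sits at the threshold: it was lost with 7 of the 8 samples left out singly (adjusted p up to 0.104, limma), the exception being pcDNA replicate 2, without which the difference was -0.15 and the adjusted p 0.0440. It was also lost with an equal sum (0.0722), without the mean-variance trend (0.0522), with a minimum mean of 5 (0.0533) and in replicates 1 and 2 alone (0.174), all by limma.

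The other subunits were not called without the block. Nfkb2 (chr19:46304320-46312385, plus strand) had values of 9.61, 9.88, 9.53 and 9.54 in pcDNA replicates 1 to 4, and of 9.50, 9.78, 9.42 and 9.43 in pIGrhl2 replicates 1 to 4. In both groups replicate 2 was the highest, and the groups overlapped. Its difference of -0.11 (standard error 0.099) had an adjusted p of 0.509 (limma), or 0.0358 with the replicate block, with pairs that differed by -0.10, -0.11, -0.10 and -0.12. With a term for replicates 1 and 2 against 3 and 4 in place of the block it was 0.266. Without the block, the difference of Nfkb2 ran from -0.026 without pcDNA replicate 2 to -0.19 without pIGrhl2 replicate 2, and was -0.11 with both left out. Rel (chr11:23736847-23770970, minus strand) had values of 5.36, 5.65, 5.27 and 5.23 in pcDNA samples, and of 5.21, 5.30, 5.21 and 5.08 in pIGrhl2 samples. The groups of Rel overlapped, again with replicate 2 highest in each. Its difference of -0.18 (standard error 0.088) had an adjusted p of 0.204, of 0.0268 with the block and of 0.0603 with the term for replicates 1 and 2 against 3 and 4 (limma). Rela (chr19:5637483-5648130, plus strand) had values of 11.23, 11.36, 11.14 and 11.10 in pcDNA samples, and of 11.11, 11.195, 11.07 and 11.06 in pIGrhl2 samples. Replicate 2 was highest in both groups here too, and the difference of -0.10 missed the threshold without the block (adjusted p = 0.316, limma) and with it (0.0510). Nfkb1 (chr3:135584655-135691547, minus strand) had values of 9.13, 9.23, 9.15 and 9.10 in pcDNA samples, and of 9.09, 9.12, 9.12 and 8.997 in pIGrhl2 samples. These groups overlapped, and the difference was -0.07 (95% confidence interval -0.18 to 0.04, adjusted p = 0.365, limma, or 0.166 with the block).

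Each of the 5 subunit genes was lower in the pIGrhl2 sample than in the control of the same number in all 4 pairs, as were 21.3% of all genes (27.3% of genes were higher in all 4). These genes are measured in the same 8 samples and are not independent of each other. The exact test of sign flips within the 4 pairs cannot go below a p of 0.125, which was its value for each of the 5 (two-sided). Without the block, 1 of the 5 was called lower, against 5.91% of all genes, and with it 3 of the 5 (Nfkb2, Relb and Rel), against 13.9%. In the fit of genes with a mean of at least 5, more genes were called lower (899) than higher (715), and no subunit was called. The median difference of the 5 was -0.11, beside 0.0066 over all genes. Each of the 5 stayed lower under all alternatives run, both scalings included, but the size moved with the samples numbered 2. Without pcDNA replicate 2 the differences were -0.045 for Nfkb1, -0.026 for Nfkb2, -0.047 for Rela and -0.084 for Rel, none called by limma. Without pIGrhl2 replicate 2 they were larger, at -0.085, -0.19, -0.13 and -0.21 in the same order. With both left out they were -0.059, -0.11, -0.076 and -0.12. Without pIGrhl2 replicate 4, the difference of Nfkb1 was -0.043. Exons of Nfkb2 overlap AC114539.1 and Psd on the opposite strand, by up to 501 and 299 bases, and reads there cannot be assigned to a strand, since counting ignored it.

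**Figure D2:**
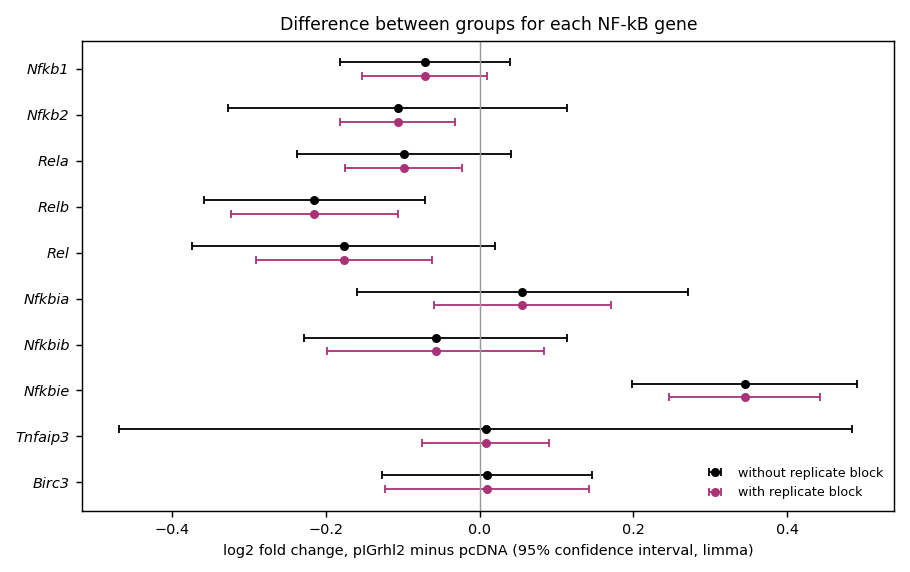
Log2 fold change, pIGrhl2 minus pcDNA (horizontal axis), of each NF-kB gene with its 95% confidence interval from limma, without (black) and with (purple) the replicate number as a block. The interval of Nfkbie lies above 0 and that of Relb below 0 in both fits, while that of Tnfaip3 narrows from -0.47 to 0.48 without the block to -0.07 to 0.09 with it.

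Apart from Nfkbie, the inhibitors and feedback genes were not called with or without the block. Nfkbia (chr12:55489410-55492647, minus strand), a widely used mRNA readout of the pathway, had values of 8.35, 8.17, 8.39 and 8.43 in pcDNA samples, and of 8.23, 8.22, 8.53 and 8.59 in pIGrhl2 samples. The groups overlapped, with replicates 3 and 4 above replicates 1 and 2 in both groups. Its difference was 0.06 (95% confidence interval -0.16 to 0.27, adjusted p = 0.748, limma). Within replicates 1 and 2 it was -0.04, and within replicates 3 and 4 it was 0.15. Nfkbib (chr7:28758251-28767512, minus strand) had values of 8.98, 8.83, 8.95 and 8.84 in pcDNA samples, and of 8.89, 9.03, 8.77 and 8.68 in pIGrhl2 samples. The pIGrhl2 samples lay on both sides of the controls, and the difference was -0.06 (95% confidence interval -0.23 to 0.11, adjusted p = 0.660, limma). Exons of Nfkbib overlap those of Sirt2 and Ccer2 on the opposite strand, by up to 42 and 314 bases. Birc3 (chr9:7848699-7873186, minus strand) had values of 7.48, 7.46, 7.43 and 7.23 in pcDNA samples, and of 7.38, 7.36, 7.44 and 7.46 in pIGrhl2 samples. Its groups overlapped, with pcDNA replicate 4 the lowest sample, and the difference was 0.01 (95% confidence interval -0.13 to 0.15, adjusted p = 0.940, limma).

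Tnfaip3 (chr10:19000910-19015657, minus strand) varied most among replicates of the 10 members. It lay at 10.11, 10.45, 9.69 and 9.56 in pcDNA replicates 1 to 4, and at 10.14, 10.37, 9.71 and 9.62 in pIGrhl2 replicates 1 to 4. Replicates 1 and 2 were above replicates 3 and 4 in both groups, by 0.65 in pcDNA and by 0.59 in pIGrhl2 samples, whereas the groups differed by 0.0077 (adjusted p = 0.986, limma). The 4 pairs differed by 0.03, -0.08, 0.02 and 0.06. Without the block the 95% confidence interval was -0.47 to 0.48, and with it -0.07 to 0.09, so the paired fit bounds the difference more closely. Among the inhibitors and feedback genes, 1 of 5 was called higher in each fit, against 10.5% of all genes without and 18.2% with the block, and their median difference was 0.0093. Over all 10 members, 2 were called, near the 16.4% of all genes.

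**Figure D3:**
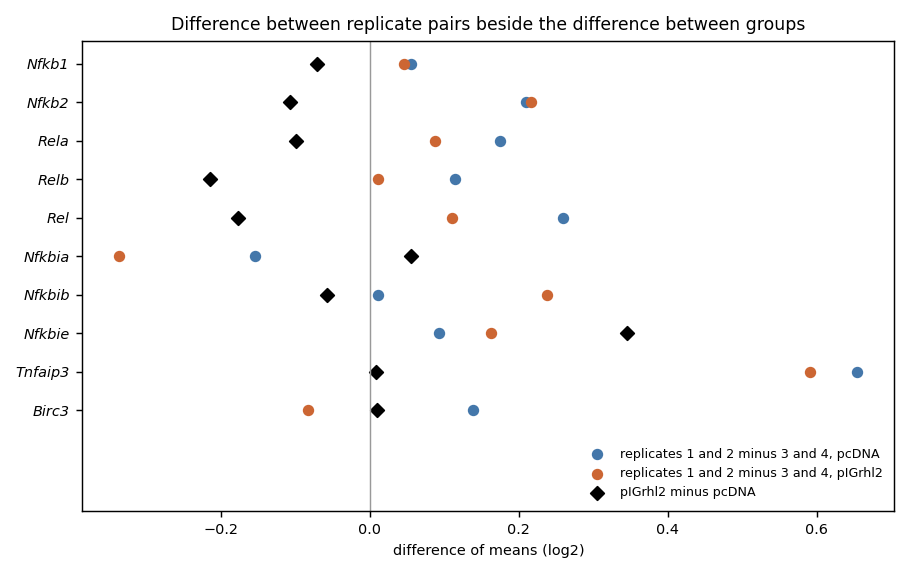
Difference of means (log2, horizontal axis) between replicates 1 and 2 and replicates 3 and 4 in the pcDNA (blue) and pIGrhl2 (orange) samples, beside the difference between the groups (black diamonds), for each NF-kB gene. For Tnfaip3 the replicates differ by 0.65 and 0.59 and the groups by 0.0077, whereas for Nfkbie the difference between groups (0.34) is larger than those between replicates.

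Replicates were not interchangeable across all genes, the members among them. The counts of members below are small and come from the same samples. In the pcDNA group, replicate 2 was the highest sample for all 5 subunit genes and for 6 of the 10 members, against 37.9% of all genes. In the pIGrhl2 group, replicate 2 was the highest for 4 of the 5 subunit genes and again for 6 of the 10 members, against 36.6% of all genes. Replicate 4 was the lowest sample for 6 of the 10 members in each group, against 30.2% of all genes in pcDNA and 30.1% in pIGrhl2 samples. With both samples numbered 2 left out, an alternative chosen after seeing the data, Nfkbie (0.35, adjusted p = 0.0301) and Relb (-0.16, adjusted p = 0.0446) were called by limma, and no other member was.

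**Figure D4:**
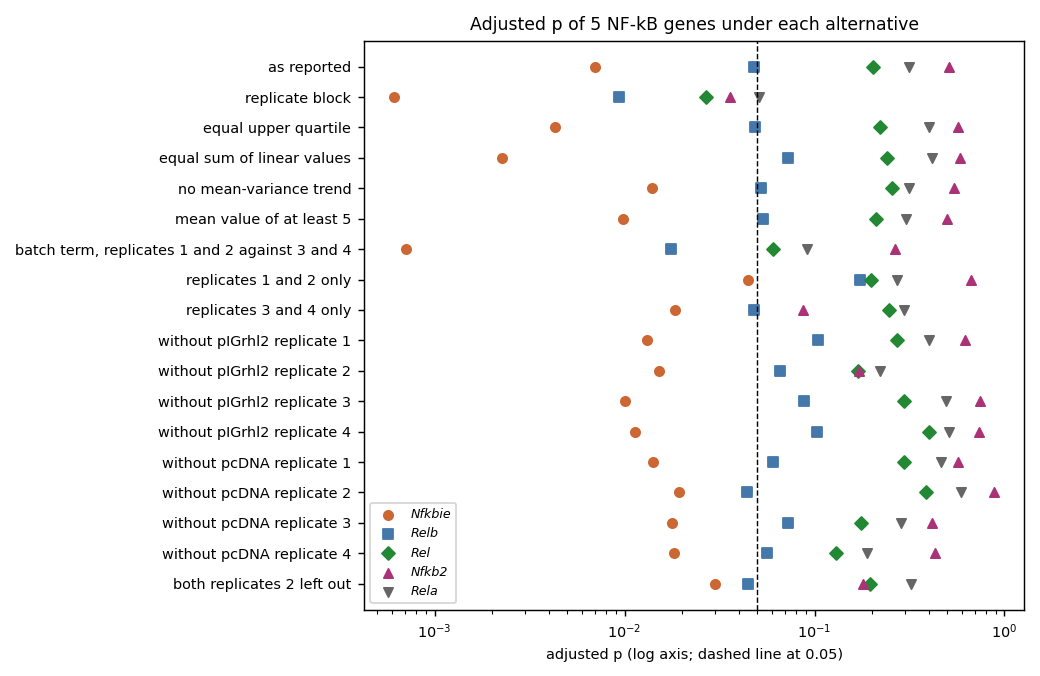
Adjusted p from limma (horizontal log axis, dashed line at 0.05) of 5 NF-kB genes in the fit reported and under each alternative (rows). Nfkbie stays below 0.05 in all rows (0.000611 to 0.0445), Relb lies on both sides of it (0.00937 to 0.174), and Nfkb2 and Rel are below it only with the replicate block.

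The genes whose values followed those of the called members most closely were found by Pearson's correlation over the 8 samples, as a description. For Nfkbie they were Tprn (r = 0.981), Llgl2, which encodes a polarity protein of epithelial cells (0.970), and Gm19569 (0.966), and 273 genes had an r over 0.9. All 3 were called higher, by 0.20, 0.24 and 0.17, which follows in part from the choice, since the groups of Nfkbie do not overlap. With the mean of each group removed, r was 0.904 to 0.909. For Relb they were Srrm4 (0.992), Dennd4a (0.991) and Uhmk1 (0.991), among 656 genes with an r over 0.9. Srrm4 (-0.19) and Dennd4a (-0.30) were called lower, and Uhmk1 (-0.14, adjusted p = 0.0964, limma) was not called. With the mean of each group removed, r was 0.977 to 0.987 for Relb, whose pcDNA replicate 2 stood above the other controls. All these values come from the same 8 libraries.

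Among the 88 other genes of the pathway lists, 83 were in the table. limma called 8 higher and 5 lower, 13 of 83 in all, near the 16.4% of all genes, and their median difference was 0.024. With the replicate block, 24 were higher (28.9%, against 18.2% of all genes) and 21 lower (25.3%, against 13.9%), so that only the count without the block was near that of all genes. Among the ligands, 5 of 9 were in the table, not including Tnf and Il1b, and none was called by limma. At an unadjusted p under 0.05 there was 1 (limma), against 5796 of all 18671 genes. With the block, 1 was higher (20.0%, against 18.2% of all genes) and 1 lower (20.0%, against 13.9%). Of the 11 receptors, Tlr3, which senses double-stranded RNA, rose from 6.38 ± 0.046 to 6.67 ± 0.029 (SD, n = 4, adjusted p = 0.00159, limma), and the others were not called. With the block, 4 receptors were higher (36.4%, against 18.2% of all genes) and 1 lower (9.09%, against 13.9%), among them Tnfrsf1a, the main TNF receptor gene (0.22, adjusted p = 0.0649 without and 0.00639 with the block, limma), whose groups did not overlap. Of the 17 adaptors, ubiquitin ligases and members of the TAK1 complex, the kinase gene Irak4 was called (0.23, adjusted p = 0.0371, limma), a call kept with 2 of the 8 samples left out singly. With the block, 3 of the 17 were higher (17.6%, against 18.2% of all genes) and 4 lower (23.5%, against 13.9%).

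Among the 6 genes of the IKK family and NIK, 2 were called lower (33.3%, against 5.91% of all genes), 1 of them for a kinase. With the block, 1 was higher (16.7%, against 18.2%) and 3 lower (50.0%, against 13.9%). Ikbkg, which encodes the regulatory subunit NEMO of the IKK complex, fell from 9.73 ± 0.051 to 9.39 ± 0.12 (SD, n = 4, adjusted p = 0.00596, limma). Tbk1, an IKK-related kinase of innate immune signalling, fell from 9.88 ± 0.085 to 9.63 ± 0.043 (SD, n = 4, adjusted p = 0.0113, limma). In both, no pIGrhl2 sample reached the lowest control. The catalytic subunits Chuk (-0.15, adjusted p = 0.305, or 0.0122 with the block) and Ikbkb (-0.03, adjusted p = 0.710) were not called by limma, nor was Map3k14, the gene of NIK (-0.07, adjusted p = 0.547). Among the 15 atypical IkB proteins and other negative regulators, Tnip3 (0.25) and the ribonuclease gene Zc3h12a (0.23) were called higher and N4bp1 (-0.15) lower, with adjusted p from 0.0335 to 0.0499 (limma). These are 13.3% of the list higher and 6.67% lower, against 10.5% and 5.91% of all genes. With the block, 5 were higher (33.3%, against 18.2%) and 4 lower (26.7%, against 13.9%). The call of Tnip3 and that of N4bp1 were each kept with 1 of the 8 samples left out singly, and that of Zc3h12a with 4.

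Of 30 further genes known as targets of NF-kB, 29 were in the table, and they went both ways: 4 were called higher (13.8%, against 10.5% of all genes) and 2 lower (6.90%, against 5.91%) by limma, with a median of 0.017. With the block, 10 were higher (34.5%, against 18.2%) and 8 lower (27.6%, against 13.9%). Plau, which encodes urokinase, rose from 7.19 ± 0.043 to 7.84 ± 0.12 (SD, n = 4), the complement gene C3 from 4.97 ± 0.18 to 5.47 ± 0.20, and Tnfaip2 from 9.53 ± 0.097 to 10.00 ± 0.13. Their adjusted p-values were 0.000207, 0.0125 and 0.00252 (limma), and in each the groups did not overlap. The fourth, Lcn2, which encodes an iron-sequestering protein, lay low, at 1.48 in pcDNA and 1.54 in pIGrhl2 samples. It differed by 0.06 (adjusted p = 0.0485, limma). Cxcl10, a chemokine gene that interferon also induces, fell from 7.11 ± 0.15 to 5.98 ± 0.064 (SD, n = 4, adjusted p = 3.16e-05, limma), and Csf1, a growth factor gene of macrophages, from 9.08 ± 0.11 to 8.66 ± 0.11 (adjusted p = 0.00408). The largest differences among the targets not called were those of Ptgs2, the gene of the prostaglandin synthase COX-2 (-0.62), the chemokine gene Cx3cl1 (0.33) and the cytokine gene Lif (-0.29). Their adjusted p-values were 0.244, 0.168 and 0.102 without the block, and 0.000118, 0.000366 and 0.00105 with it (limma), and in each the groups overlapped.

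Genes of the interferon response moved with the groups, and their part in the values above was not tested. Of the 12 on the list, all in the table, 9 were called lower (75.0%, against 5.91% of all genes) and none higher by limma, with a median of -0.29, and with the block 10 were lower (83.3%, against 13.9%). Ifit3 fell from 7.80 ± 0.27 to 5.92 ± 0.099 (SD, n = 4, adjusted p = 2.9e-05, limma), and Ifit2 from 7.67 ± 0.030 to 7.38 ± 0.13 (adjusted p = 0.0118). Ifit3 has a close paralog, and reads that map to both may have been dropped, since the methods set a minimum alignment quality for counting. Summed as linear values, the list had a log2 level of 9.76 to 10.12 in pcDNA and 9.12 to 9.26 in pIGrhl2 samples. The groups were thus apart for this list. The summed level of the 10 NF-kB members ran from 12.42 to 12.73 in pcDNA and from 12.38 to 12.63 in pIGrhl2 samples, with overlap. That sum rests mostly on Rela (11.21 in pcDNA samples) and Tnfaip3 (9.95), so it says little of Nfkbie (5.01) and Relb (7.70).

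**Figure D5:**
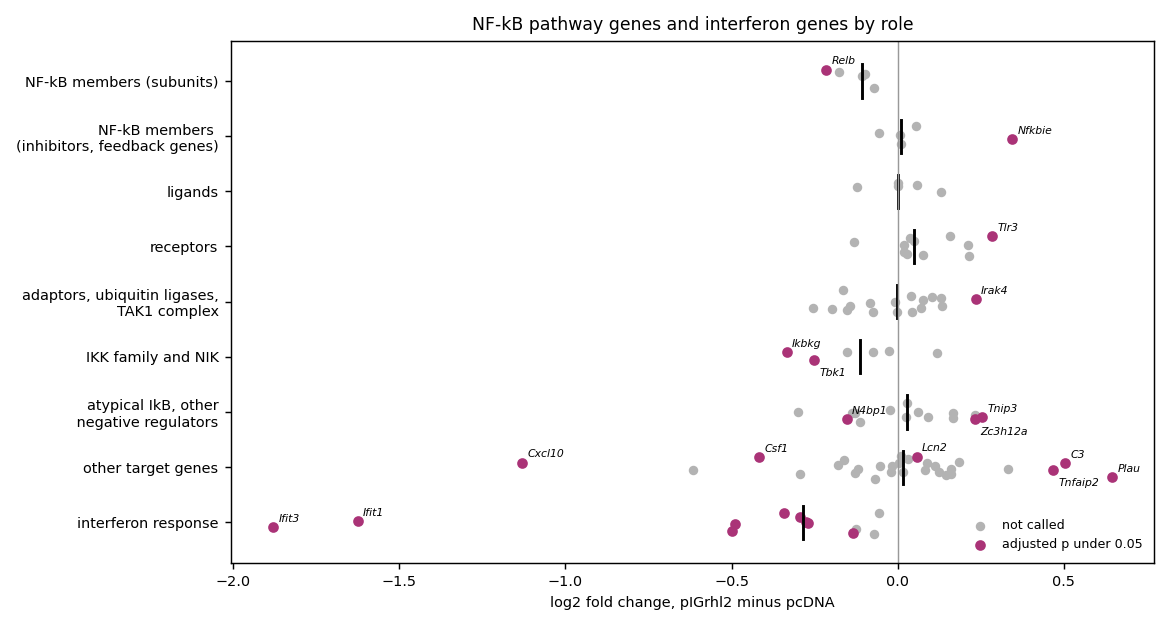
Log2 fold change, pIGrhl2 minus pcDNA (horizontal axis), of the NF-kB members, the other pathway genes by role and the interferon genes, 1 point per gene, with vertical jitter. Purple points passed the adjusted p threshold of 0.05 (limma) and black bars are medians: those of the NF-kB rows lie between -0.11 and 0.05, and that of the interferon genes at -0.29.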

How the data were processed

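RNA-seq (paired-end) was analysed in 8 BMEL samples grouped by their titles. The deposited table is named for FPKM, but its values run from -2.85 to 18.01, and were read as log2, an inference checked against transcript lengths. Per the methods, reads were mapped to mm10 and counted on exons without strand, genes under 10 cumulated reads were removed, and rlog values were divided by transcript length (a division on the linear scale, as read here). The submitters' processing notes name HISAT2 2.2.1, HTSeq 0.9.1 and DESeq2 1.40.2. That the methods, which open with public data, cover these samples is an assumption. Depth is unknown. Sample medians lay between 6.42 and 6.49.

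All 18671 genes were fitted with limma 3.58.1 in R 4.3.3 (mean-variance trend, Benjamini-Hochberg adjustment over all genes), tested on simulated data. Exact permutation tests were run in Python 3.11.15. Same-numbered samples deviated together from their group means (Pearson's r 0.474 to 0.645 across genes), so the replicate number, taken from the titles, was also used as a block. Samples of different numbers were also alike within replicates 1 and 2 (0.344 and 0.436) and within 3 and 4 (0.500 and 0.602), and pIGrhl2 replicate 3 was closer to pcDNA replicate 4 (0.602) than to its own number (0.549). That the 4 samples per group are independent cultures is stated for the experiment, not in the labels. Alternatives were the block, 2 scalings, no trend, a minimum mean of 5, a term for replicates 1 and 2 against 3 and 4, either pair alone, each sample left out, and a log2 fold change beyond 0.5. Members, gene lists and tests were chosen with earlier results of these data known. Besides the members, the text names Grhl2, up to 3 called genes of each pathway list per direction by size, and the highest and the most changed called genes of each marker list. Lcn2, Pdgfrb, Ptprc, Chuk, Ikbkb, Map3k14, Tnfrsf1a, Ptgs2, Cx3cl1 and Lif were added after their values were seen. Gene positions and overlaps are those of GENCODE M21 on GRCm38, and promoters those of RefSeq.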

Additional observations from a re-analysis of the deposited data

Results flagged for a closer look

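In 3 of 64 groups of 4 samples (members and other named genes, each in both groups), 1 sample stood apart from the others by more than the Dixon criterion allows, where chance gives about 1 in 20 groups. Relb lay at 7.89 in pcDNA replicate 2, above the other controls (7.61 to 7.65). Tlr3 lay at 6.31 in the same sample, below the other controls (6.401 to 6.407). Ikbkg lay at 9.65 in pcDNA replicate 1, below the other controls (9.75 to 9.76).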

How the results depend on the processing

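Depth is unknown and the rlog shrinks differences of genes with few reads. With the log2 of length added back, the lowest members were Nfkbie (6.56) and Birc3 (7.66). Counts are given as higher and lower for all genes (1957 and 1104 as reported) and in either direction for lists, and causes were not tested. With the replicate block, they were 3396 and 2589 for all genes (3048 of the 3061 genes called without it were called again), 3 members lower (all of them subunits), 2 ligands, 5 receptors, 7 adaptors, 4 genes of the IKK family and NIK, 9 negative regulators, 18 targets, 2 leukocyte, 2 endothelial and 5 liver markers, and the block turned no direction. With a term for replicates 1 and 2 against 3 and 4, they were 3270 and 2478, 2 ligands, 5 receptors, 5 adaptors, 9 negative regulators, 13 targets, 1 leukocyte, 2 endothelial and 5 liver markers. In replicates 1 and 2 alone, they were 1021 and 339, 0 members (subunits) lower, 1 gene of the IKK family and NIK, 0 negative regulators, 4 interferon genes, 1 stellate and 0 liver markers. In replicates 3 and 4 alone, 1667 genes were lower, with 1 ligand, 4 receptors, 2 adaptors, 6 negative regulators, 1 stellate and 4 liver markers. An equal upper quartile gave 3064 genes higher (75.9% of calls, against 63.9%), 3 receptors, 1 leukocyte, 1 endothelial and 4 liver markers. An equal sum (77.0% of calls higher) gave 0 members (subunits) lower, 1 ligand, 3 receptors, 1 leukocyte and 2 endothelial markers. Without the trend, 0 members (subunits) were lower and 2 adaptors were called. With a minimum mean of 5, which leaves fewer genes, they were 715 genes higher (44.3% of calls), 0 members (subunits) lower, 1 negative regulator, 5 interferon genes and 0 stellate markers. A log2 fold change beyond 0.5 left 199 and 70 genes, 0 members in either direction and of either kind, 0 receptors, adaptors, IKK family genes and negative regulators, 3 targets, 2 interferon genes, and 0 stellate and liver markers. With both samples numbered 2 left out, chosen after seeing the data, 2 receptors, 0 adaptors, 1 negative regulator and 1 leukocyte marker were called.

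With each sample left out in turn, 1326 to 1848 genes were higher and 690 to 1036 lower, 0 to 1 members (subunits) lower, 0 to 1 ligands, 1 to 2 receptors, 0 to 2 adaptors, 0 to 3 negative regulators, 7 to 9 interferon genes, 0 to 1 leukocyte and 1 to 3 liver markers. Under this, Nfkbia ran from -0.011 to 0.11, Tnfaip3 from -0.13 to 0.17 and Birc3 from -0.047 to 0.036. In replicates 1 and 2 alone, Nfkbia (-0.036), Nfkbib (0.056), Tnfaip3 (-0.025) and Birc3 (-0.10) turned, and in replicates 3 and 4 alone Krt8 did (-0.019), none of them called. Over the members and the alternatives other than the larger fold change, under which Nfkbie and Relb both lost the call, 146 values kept direction and call, 2 gained the call (Nfkb2 and Rel with the block), 11 lost it (all of Relb) and 11 turned direction, none of them called (Nfkbia, Nfkbib, Tnfaip3 and Birc3, with 4 of those of Tnfaip3 under single samples left out).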
